A study of Mus musculus with 3 samples.

Results

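The mRNAs described here encode the proteins of the small (40S) subunit of the cytosolic ribosome. They were taken as the rows of the deposited table whose symbol is Rpsa, Fau or Rps followed by a number and then, optionally, a letter (a, x or l only) and a digit, which gave 33 genes of 15403 with a gene symbol. Of these, 32 are the canonical small subunit proteins, and the other is Rps27l, a paralog of Rps27. All 33 passed the minimum mean of 10 normalized counts. The rule does not take in Gnb2l1, the older symbol of Rack1, whose protein also sits on the small subunit. The assay was RIP-seq, the sequencing of RNA pulled down with an antibody to a protein. The RNA came from C2C12, an established line of mouse myoblasts whose cells fuse into myotubes in low serum. Total extract was made on day 2 after the switch to 2% horse serum, and 500 µg of it was incubated with beads carrying HuR antibody, YB-1 antibody or control IgG. There was 1 library for each of the 3, so no difference below has a replicate check or a test, and intervals cover counting error only, as without molecular identifiers several reads can stem from 1 molecule. All 3 library columns carry the name ending siCtl, whose meaning the labels leave unstated.

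The small subunit binds the initiation factors and the mRNA, and it holds the decoding site where codons are read by tRNA. In vertebrates, mRNAs of ribosomal proteins share a 5′ terminal oligopyrimidine (TOP) tract, a run of C and T that begins at the first base and through which their translation follows growth signals. YB-1, encoded by Ybx1, is an abundant cold-shock domain protein that coats mRNA in the cytoplasm, and HuR, encoded by Elavl1, binds U-rich and AU-rich sequence in mRNA. By its design text, the series set out to find candidate mRNA targets of both proteins in muscle cells.

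Recovered reads over all named genes numbered 24722166 in the HuR library, 39038366 in the YB-1 library and 10617029 in the IgG library. The 10 muscle markers were read in all 3, with no marker at 0, but their levels differed between libraries. They summed to 702935 (HuR), 691310 (YB-1) and 1241920 (IgG) normalized counts, of which Acta1 made up 103252, 189406 and 689855. In YB-1 over IgG, 4 of the 10 were at least 2-fold higher and 5 were at least 2-fold lower. Their log2 ratios ran from -3.91 (Mef2c) to 2.51 (Chrna1). In HuR over IgG, 4 were higher and 4 were lower by that much. In the IgG library, 1368 genes of 15403 had a mean of 10 or more and lay at least 8-fold above both antibody libraries. None of the 33 small subunit genes was among them. The 1368 genes held 20.8% of IgG reads, 0.811% of HuR reads and 0.868% of YB-1 reads, a direction set by how they were picked. The matching count was not made for the HuR or YB-1 library. The 5 endothelial markers summed to 1.72 (HuR), 14.3 (YB-1) and 9612 (IgG) normalized counts. The 5 adipocyte markers summed to 10.3, 1.06 and 6866 in the same order, with 4, 4 and 0 of them at 0. The 3 haematopoietic markers in the table were at 0 in HuR and summed to 15.4 in YB-1 and 75.7 in IgG. The 4 neural markers in the table gave 9829, 4663 and 3938, of which Tubb3 made up 9661, 4577 and 2841. Another neural marker, Mbp, was at 0 in HuR and in YB-1, against 966 in IgG. The part of this make-up in the ratios to IgG was not tested.

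RefSeq start sequences (GRCm38.p6) matched 25 of the 33 genes, and 8 had a run of 5 or more C or T beginning exactly at an annotated first base, against 5.14% of 11284 genes of the table with such a sequence. Within the bases from 20 before to 30 after the annotated start, 13 of the 25 (52.0%) held a C and T run of 8 or more, against 22.0% of all genes. Of 39 large subunit genes, 23.1% and 56.4% did. The 9 stretches below are shown because they hold or lack the feature for which this class of mRNA is known, in genes at both ends of the ratios described further on. Each has 30 bases on the strand of the gene, from 5 before the annotated start, with the longest C and T run in capitals.
Rps12: cggccaccgccggCCTTTTCCCCTgccgcc
Rps24: ggTCCTTCCTTgcgcgttgatatgattggt
Fau: caCTTCTTCCTCTTTCTTgactccatcttc
Rps10: cgCCCCTTCCTTTCCagcctccgcctcgga
Rps18: ccgCTCTCTCTTCCacaggaggcctacacg
Rps6: cgggCCTCTTTTTCgtgacgcctcccaggc
Rps27: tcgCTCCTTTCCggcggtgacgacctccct
Rps26: ccgccggaTCCTCTTTCgagtcttggctcc
Rps13: gtcggtgagtggcgtcaCTTCCTgtgcggc
The run from the first base was 13 bases in Fau, 10 in Rps10, 9 in Rps6 and in Rps18, 7 in Rps27 and 6 in Rps24. In Rps12 and Rps26 the longest run began 8 and 3 bases after the annotated start, and Rps13 had no run of 8 in the window. These stretches lie at chr10:23787185-23787214 (Rps12, minus strand), chr14:24490673-24490702 (Rps24, plus strand), chr19:6057942-6057971 (Fau, plus strand), chr17:27635220-27635249 (Rps10, minus strand) and chr17:33955641-33955670 (Rps18, minus strand). The others lie at chr4:86857343-86857372 (Rps6), chr3:90213624-90213653 (Rps27), chr10:128626482-128626511 (Rps26) and chr7:116334166-116334195 (Rps13), all on the minus strand. The annotated start of a gene may differ from the start its mRNA has in these cells.

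Small subunit mRNAs were lower in the HuR library than in the YB-1 library, in 33 of 33 genes on the authors' scaling and in 19 when measured from the median of large subunit genes. Measured from large subunit genes, the median log2 ratio was -0.065 for the members and 0.63 over all genes. Over all genes, 6456 of 12238 were lower in HuR on the authors' scaling. Of the 33, 13 were at least 2-fold lower in HuR and 0 were at least 2-fold higher. The background over 12238 genes was 12.0% at least 2-fold lower, beside 39.4% of the members, and 19.8% at least 2-fold higher. The members' median log2 ratio of HuR over YB-1 was -0.76 (quartiles -1.14 and -0.53), against -0.064 over all genes. Small subunit reads made up 1.72% of the HuR library (95% exact interval 1.71 to 1.72), 3.34% of the YB-1 library (3.33 to 3.34) and 1.07% of the IgG library (1.06 to 1.08). Because no library of the extract before immunoprecipitation was analysed here, and cells of a culture were pooled, how much of an mRNA the cells held and how much of it an antibody recovered cannot be told apart, nor can fewer cells of a type and less RNA per cell.

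**Figure D1:**
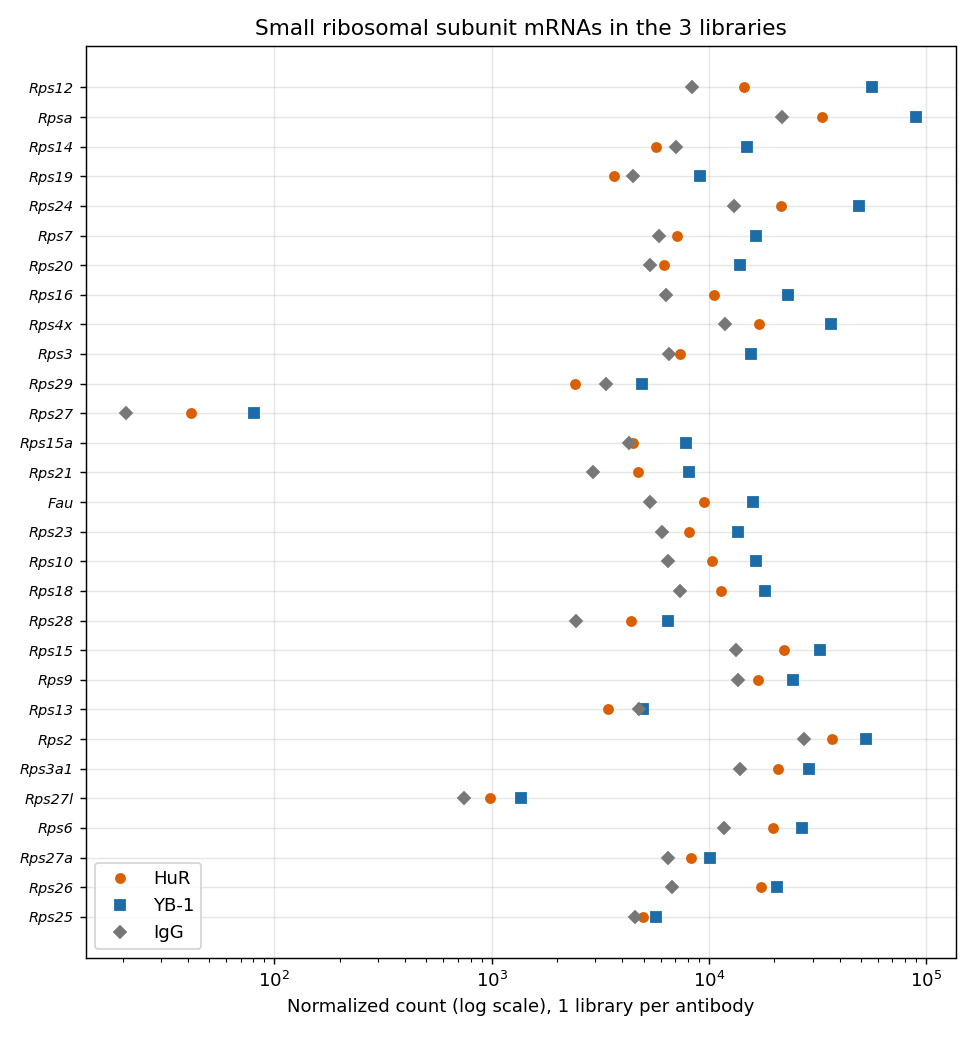
Normalized counts (log axis) of 29 small subunit genes in the HuR, YB-1 and IgG libraries, 1 library each, with genes ordered from the lowest to the highest ratio of HuR over YB-1. On the authors' scaling the YB-1 library is the highest of the 3 for every gene drawn, and Rps27 lies far below the others at 41.4, 80.2 and 20.7.

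How often the order YB-1 above HuR above IgG held over all genes was not counted, and it held in 28 of the 33 genes. In the other 5, among them Rps29, Rps13, Rps14 and Rps19, IgG lay between the YB-1 and HuR libraries. The medians of the 33 levels were 8303 normalized counts in HuR, 15962 in YB-1 and 6462 in IgG. Leaving out Rps27, the lowest level belonged to Rps27l in each library, and the fewest reads behind a value were the 325 of Rps27l in IgG. Counting error is thus small beside most ratios, whereas the spread between repeated immunoprecipitations is unknown.

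Rps12, which sits in the head of the subunit, had the lowest ratio of HuR over YB-1. The gene has 6 exons on the minus strand at chr10:23785183-23787275 (GENCODE M21, GRCm38). Rps12, a protein of the beak of the head, stood at 14495 normalized counts in the HuR library, 56483 in the YB-1 library and 8364 in the IgG library. The YB-1 library is the one that stands out, and the log2 ratio of HuR over YB-1 was -1.96 (95% counting interval -1.99 to -1.94). On the same scale HuR lay 0.79 above IgG.

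Rpsa, whose protein is needed for processing of the precursor of 18S rRNA and was first described as a laminin receptor, stood at 33320 in HuR, 89788 in YB-1 and 21669 in IgG. Its log2 ratio of HuR over YB-1 was -1.43 (-1.45 to -1.41). Rps14, a platform protein whose human gene is lost in the 5q deletion form of myelodysplastic syndrome, stood at 5723 in HuR, 14937 in YB-1 and 7033 in IgG. Its log2 ratio was -1.38. Rps19, the gene most often mutated in Diamond-Blackfan anaemia, stood at 3670 in HuR, 9087 in YB-1 and 4482 in IgG, with a log2 ratio of -1.31. In Rps14 and Rps19 the HuR library was the lowest of the 3, which was not so for Rpsa. Close to the 2-fold line were Rps29, at -1.03, on the lower side, and Rps27, at -0.96, on the other.

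Several genes at the other end differed little between the antibodies. Rps25, a head protein that internal ribosome entry sites of several viruses depend on, stood at 4984 in HuR, 5711 in YB-1 and 4548 in IgG, with a log2 ratio of HuR over YB-1 of -0.20 (-0.24 to -0.15). Rps26, which contacts mRNA upstream of the decoding site, stood at 17413 in HuR, 20494 in YB-1 and 6795 in IgG, with a ratio of -0.24 (-0.26 to -0.21). Unlike Rps25, which was near IgG in both libraries, Rps26 was well above IgG in both. Rps27a and Rps6 followed, at -0.29 and -0.44.

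Most genes lay between these ends. Rps24, whose protein lies in the body, gave -1.20, and Rps7, which is known to bind the p53 regulator Mdm2, gave -1.20 as well, with 7136 in HuR, 16394 in YB-1 and 5884 in IgG. Rps20, Rps16, Rps4x, Rps3 and Rps29 were also among the 13 genes past 2-fold. Rps16, whose C-terminal tail reaches the tRNA in the P site, stood at 10523, 23177 and 6313, a ratio of -1.14. Rps4x, the X-linked member of the Rps4 family, stood at 17034, 36629 and 11880, a ratio of -1.10. Rps3, which lines the mRNA entry channel, stood at 7374, 15543 and 6572, a ratio of -1.08. On the log2 scale, the HuR library was 0.28 above IgG in Rps7 and 0.17 above it in Rps3, and 0.74 above it in Rps16.

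Less than 2-fold apart were Rps15a at -0.81, Rps21 at -0.78, Rps23 at -0.74, Rps10 at -0.68 and Rps18 at -0.66. Rps23, a protein of the decoding centre, stood at 8136 in HuR, 13551 in YB-1 and 6083 in IgG. Rps10, which is ubiquitylated on stalled ribosomes, stood at 10323, 16512 and 6462. The abundant Rps2, Rps15, Rps9 and Rps3a1 were all among the smaller differences. Rps2 stood at 36827, 52623 and 27483, a ratio of -0.51, and Rps15 at 22122, 32458 and 13383, a ratio of -0.55. Rps9 gave -0.53 and Rps3a1 gave -0.48. Rpsa, the most abundant member by its mean, had one of the lowest ratios and Rps2, the next, one of the higher. Spearman's rho of the ratio with mean level was -0.137 over the 33 genes. The mean takes in both libraries of the ratio, so mean and ratio are not independent.

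By place in the subunit, the 14 head proteins had a median log2 ratio of HuR over YB-1 of -0.89, with 7 at least 2-fold lower. The 18 proteins of the body and platform had a median of -0.77, with 6 at least 2-fold lower. Over all genes 12.0% were at least 2-fold lower, a share that both groups exceeded. The 2 groups overlapped over most of their ranges. Rps12 and Rps25 lay at the ends of the head, and Rpsa was the lowest of the body and platform. The 8 genes with a C and T run of 5 or more from an annotated start had a median of -0.77 (range -1.20 to -0.44), and the 17 with a shorter run had a median of -0.57 (-1.96 to -0.20). These ranges overlap. Rps12, printed above, had no run at its annotated start.

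**Figure D2:**
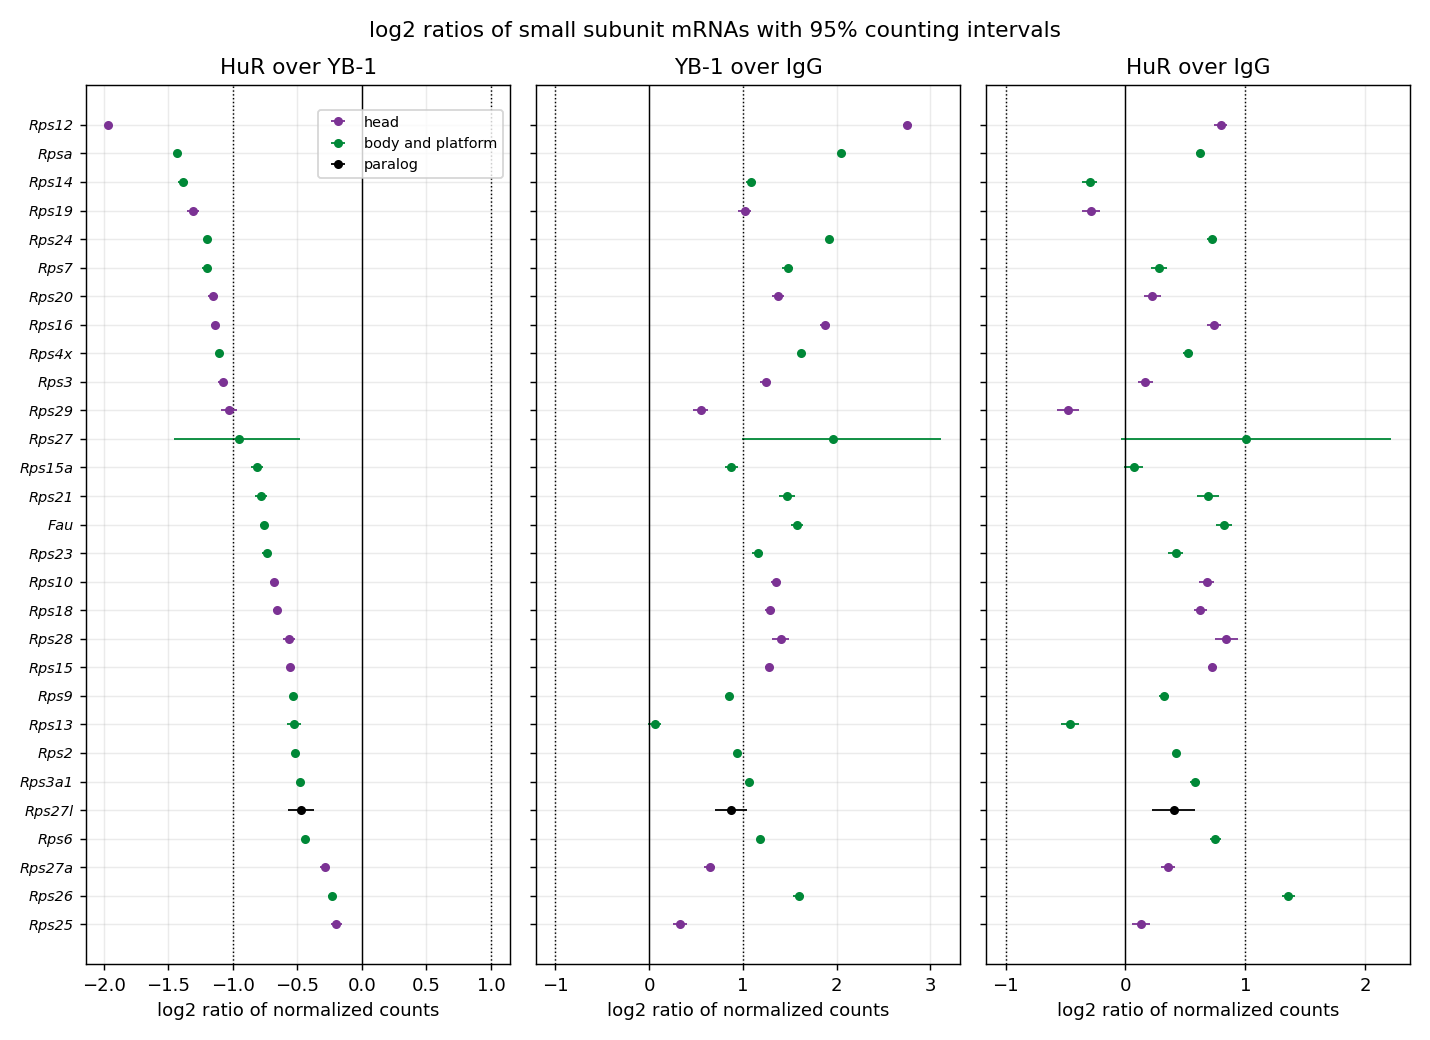
Log2 ratios of normalized counts for 29 of the genes in the 3 comparisons, with points coloured by place in the subunit and bars for 95% counting intervals. Dotted lines mark 2-fold. HuR over YB-1 runs from -1.96 to -0.20, YB-1 over IgG from 0.061 to 2.76 and HuR over IgG from -0.48 to 1.36, and only Rps27 has a wide interval.

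Relative to IgG, the YB-1 library had the higher level in 33 of 33 small subunit genes on the authors' scaling (20 when measured from the large subunit), of which 23 reached 2-fold or more. None was lower by that much. Measured from the large subunit, the median log2 ratio was 0.16 for the members and -1.29 over all genes. Over all genes, 5898 of 13022 were higher in YB-1 than in IgG on the authors' scaling. The background at 2-fold was 17.0% on the higher side, beside 69.7% of the members, and 32.8% on the lower side. The median of the members for YB-1 over IgG, on the log2 scale, was 1.28, against -0.17 over all genes. Rps12 had the highest ratio, 2.76 (2.71 to 2.80), which is 6.75-fold. Other high ratios were those of Rpsa, Rps27 and Rps24, the last of these encoding a body protein mutated in Diamond-Blackfan anaemia, at 2.05, 1.96 and 1.92. Rps24 reached 21437 in HuR, 49341 in YB-1 and 13022 in IgG.

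Among the lowest ratios of YB-1 over IgG were those of Rps13, Rps25, Rps29 and Rps27a, at 0.061, 0.33, 0.55 and 0.64. Rps13, a platform protein, reached 4957 in the YB-1 library and 4750 in the IgG library, and its interval of -0.0074 to 0.13 included 0. For the other 32 genes the counting interval lay above 0. In the authors' deposited table, which compares YB-1 with IgG by DESeq2, the moderated log2 fold changes of the members ran from 0.054 for Rps13 to 1.90 for Rps12, with standard errors of 0.69 to 1.11. The smallest adjusted p in the authors' deposited table was 0.845, among the members and over all genes alike, so no gene of the table passed 0.05 and the value says nothing particular of the members.

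In HuR over IgG the members lay closer to the bulk of genes. Only 2 of 33 were at least 2-fold higher, or 6.06%, beside 18.9% of 13024 genes, and 0 were at least 2-fold lower, beside 31.1%. The median log2 ratio was 0.42, against -0.16 over all genes. Rps26 had the highest, 1.36 (1.30 to 1.41), with 17413 normalized counts in HuR and 6795 in IgG. Rps27 was next at 1.00, on 48 and 9 reads, with an interval of -0.040 to 2.22. Rps28, a head protein near the mRNA exit, Fau and Rps12 followed at 0.84, 0.82 and 0.79. Below IgG were Rps29, at -0.48, Rps13, at -0.46, Rps14, at -0.30, and Rps19, at -0.29. Rps29, a zinc-binding head protein, stood at 2408 in HuR and 3359 in IgG. The comparisons with IgG share that library and are not independent of each other, and these signs rest on the authors' scaling. On it 28 members were above 0 in HuR over IgG, beside 5908 of 13024 genes. Measured from the median of large subunit genes, 16 members were, with a median of -0.073 against -0.65 over all genes.

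The share of small subunit reads that each gene held is free of any scaling factor. Rps12 held 3.96% of small subunit reads in the HuR library (3.90 to 4.02), 8.16% in the YB-1 library (8.12 to 8.21) and 3.21% in the IgG library (3.11 to 3.31). Rpsa held 9.11%, 13.0% and 8.32% in the same order. Both genes took a larger share in YB-1 than in either other library. Rps2, a protein at the mRNA entry side of the body, went the other way, with 10.1% in HuR, 7.61% in YB-1 and 10.5% in IgG. Rps26 was high in HuR alone, with 4.76%, against 2.96% in YB-1 and 2.61% in IgG. Of the 33 genes, 14 held a smaller share in HuR than in YB-1. The 5 leading genes together held 36.7% of small subunit reads in HuR, 41.2% in YB-1 and 34.5% in IgG. Rpsa, Rps2 and Rps24 were among them in both antibody libraries, and Rps15, a head protein near the decoding site, was among them in HuR and IgG.

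**Figure D3:**
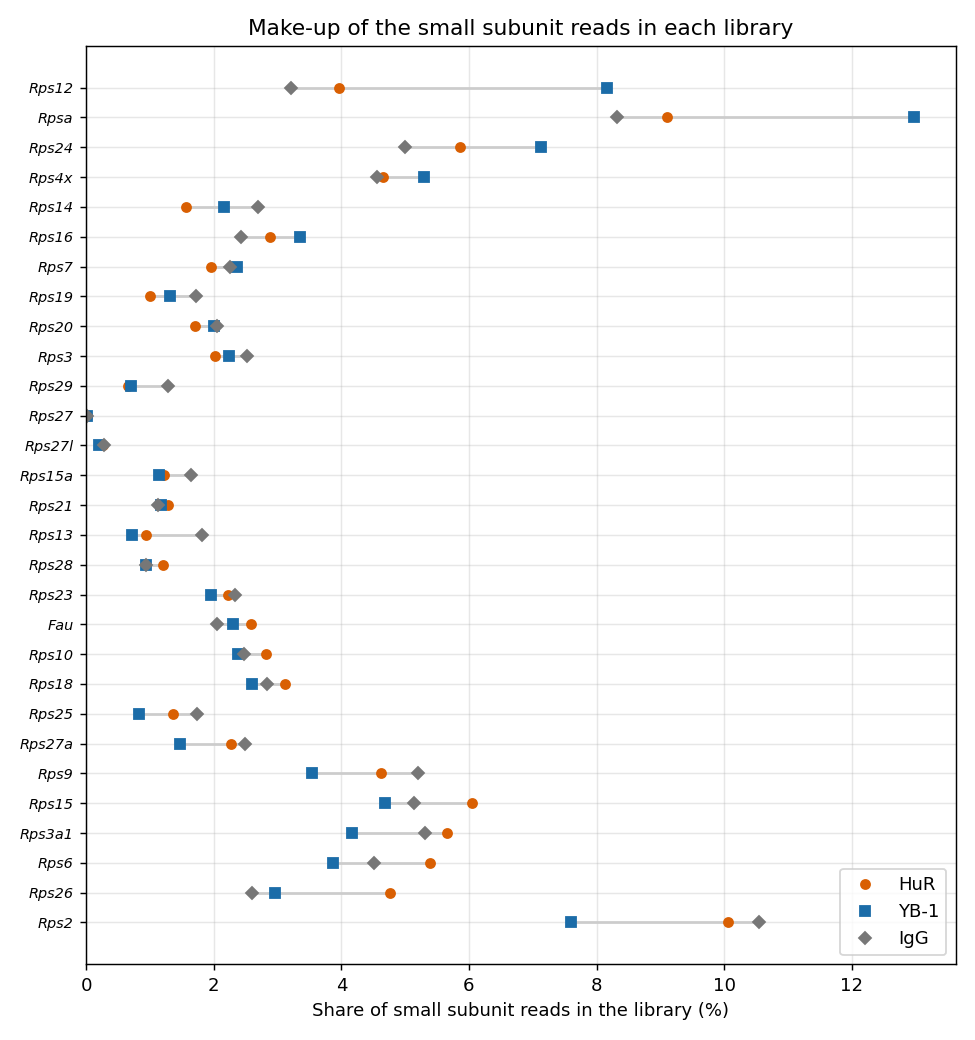
Share of small subunit reads (%) held by each of 29 genes in the HuR, YB-1 and IgG libraries, ordered by the difference of HuR minus YB-1. Of these, Rps12 and Rpsa have the largest surplus in YB-1 over HuR, and Rps2 and Rps26 have the largest surplus in HuR over YB-1.

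Levels can be compared between genes only per length, and per kilobase of coding sequence they spread over a wide range. Leaving out Rps27, they ran from 3907 normalized counts per kilobase (Rps27l) to 53726 (Rps24) in HuR, from 5416 (Rps27l) to 142633 (Rps12) in YB-1 and from 2959 (Rps27l) to 32637 (Rps24) in IgG. The SD of log2 level across these 32 genes was 0.85 in HuR, 0.95 in YB-1 and 0.64 in IgG. Rps12 led per length in YB-1, and Rps24 led in HuR and IgG.

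The paralogs Rps27 and Rps27l encode near-identical zinc-binding proteins of the platform, and Rps27l is known as a p53 target. Rps27 stood at 41.4 normalized counts in HuR, 80.2 in YB-1 and 20.7 in IgG, from 48, 151 and 9 reads. Rps27l stood at 985, 1365 and 746 in the same order. Rps27 was thus the least counted member in each library, below its paralog. All 203 windows of 50 bases in the Rps27 coding sequence also occur in other annotated genes, 9 of them in all, of which Rps27rt shares the most and has no row among those analysed. How such reads were counted is not given in the sources used here, so the value for Rps27 cannot be taken as the level of its mRNA.

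Fau and Rps27a encode precursors in which a small subunit protein is fused to a ubiquitin-like protein (Fau) or to ubiquitin (Rps27a). Fau stood at 9446 normalized counts in HuR, 15962 in YB-1 and 5349 in IgG, and HuR over YB-1 gave -0.76 on the log2 scale. Rps27a stood at 8303, 10141 and 6492 in the same order, and its ratio of -0.29 was among the 5 nearest to 0. Rps6, the substrate of the S6 kinases, stood at 19739, 26724 and 11742, a ratio of -0.44. Gnb2l1, the scaffold protein on the head of the subunit, stood at 12580, 27880 and 10328, with a ratio of -1.15 that falls within the range of the members.

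Ribosomal protein genes have many processed copies in the genome, and reads from near-identical copies cannot be assigned with certainty. In the coding sequences of GENCODE release M21, 11 of the 33 genes had all their 50-base windows in another annotated gene as well, and the median share was 90.1%. Only 7 genes had under 50%, among them Rps3, Rps9, Rps15, Rps21 and Rps27l. Rps12 shared all of its windows, with 25 other genes, and Rps3 shared 8.09%, and both were at least 2-fold lower in HuR. The 7 genes with under 50% shared had a median log2 ratio of -0.78 in HuR over YB-1, with 3 at least 2-fold lower, and 1.28 in YB-1 over IgG, with 5 at least 2-fold higher. The 11 fully shared genes had medians of -0.74 and 1.19, with 3 at least 2-fold lower in the first and 7 at least 2-fold higher in the second. Over all genes these shares were 12.0% and 17.0%. Across the 33 genes, Spearman's rho between the shared percentage and the ratio was 0.105 for HuR over YB-1 and -0.031 for YB-1 over IgG. Coding GC content had a rho of -0.088 with HuR over YB-1, against -0.212 over all genes. Mean level had a rho of 0.43 with YB-1 over IgG, against 0.25 over all genes. That mean takes in the YB-1 library, the highest for each of the 33 genes, so part of the rho is built in. All points share the same libraries, and these values are descriptions.

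**Figure D4:**
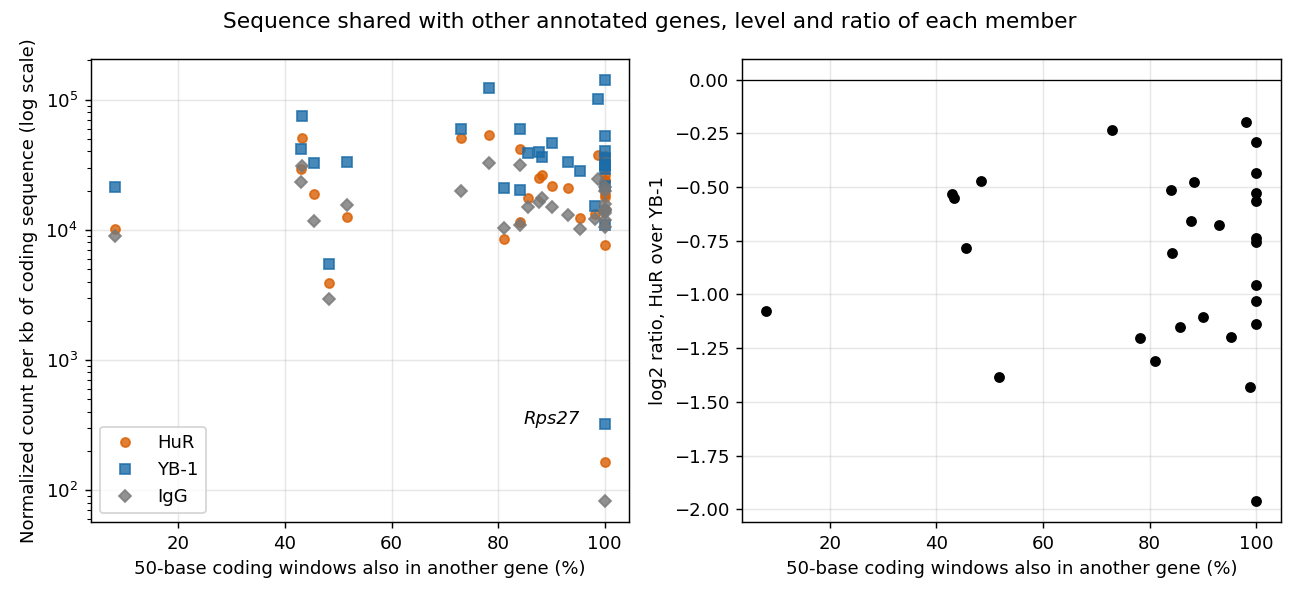
Left, normalized count per kilobase of coding sequence (log axis) of 29 genes in the HuR, YB-1 and IgG libraries against the percentage of its 50-base coding windows that also occur in another annotated gene. Right, the log2 ratio of HuR over YB-1 against the same percentage. The fully shared genes reach from -1.96 to -0.29, and Rps3, at 8.09% shared, lies at -1.08.

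Proteins of the large subunit lay close to those of the small subunit. Of 50 large subunit genes measured, HuR over YB-1 put 16 below the 2-fold line and 0 above it, and their median log2 ratio was -0.69. For YB-1 over IgG, 31 were above it and 1 was below, around a median of 1.12. The summed level of the small subunit over that of the large subunit was 0.650 in HuR, 0.659 in YB-1 and 0.649 in IgG on the normalized counts. Per kilobase of coding sequence it was 0.535, 0.487 and 0.561, so the libraries differed more by that measure. The 29 mRNAs of the mitochondrial small subunit had a median of -0.58 in HuR over YB-1. There 1 (3.45%) passed 2-fold downward and 1 (3.45%) upward, below the 12.0% and 19.8% of all genes. Their median in YB-1 over IgG was -0.072. There 3 (10.3%) passed 2-fold downward and 0 upward, also below the 32.8% and 17.0% of all genes.

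Factors that act with the 40S subunit were described in the same way. The 12 measured subunits of eIF3, the initiation factor that binds the 40S subunit, had a median of -0.60 in HuR over YB-1. Of the 12, 4 (33.3%) were at least 2-fold lower, namely Eif3i, Eif3h, Eif3g and Eif3l, against 12.0% of all genes. At least 2-fold higher were 0, against 19.8%. Eif3i stood at 1654 in HuR, 5119 in YB-1 and 2047 in IgG, a ratio of -1.63, and Eif3a at 3748, 2099 and 6404, a ratio of 0.84. The whole list of 26 factors that bind the 40S subunit or act with it in initiation, eIF3 and Gnb2l1 included, had a median of -0.22. Of these, 5 (19.2%, beside 12.0% of all genes) were at least 2-fold lower. Another 4 (15.4%, below the 19.8% of all genes) were higher, among them the cap-binding factor Eif4e at 2.23 and Eif4a1 at 1.24. Of 45 factors that assemble the 40S subunit in the nucleolus and cytoplasm, HuR over YB-1 put 1 below the 2-fold line (Pno1, -1.18). That is 2.22%, against 12.0% of all genes. The 5 above the line, or 11.1%, are also below the share of all genes, and the median was -0.22. For YB-1 over IgG their median was 0.12, with 5 (11.1%) past 2-fold on each side. Both are below the shares of all genes, 17.0% higher and 32.8% lower.

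**Figure D5:**
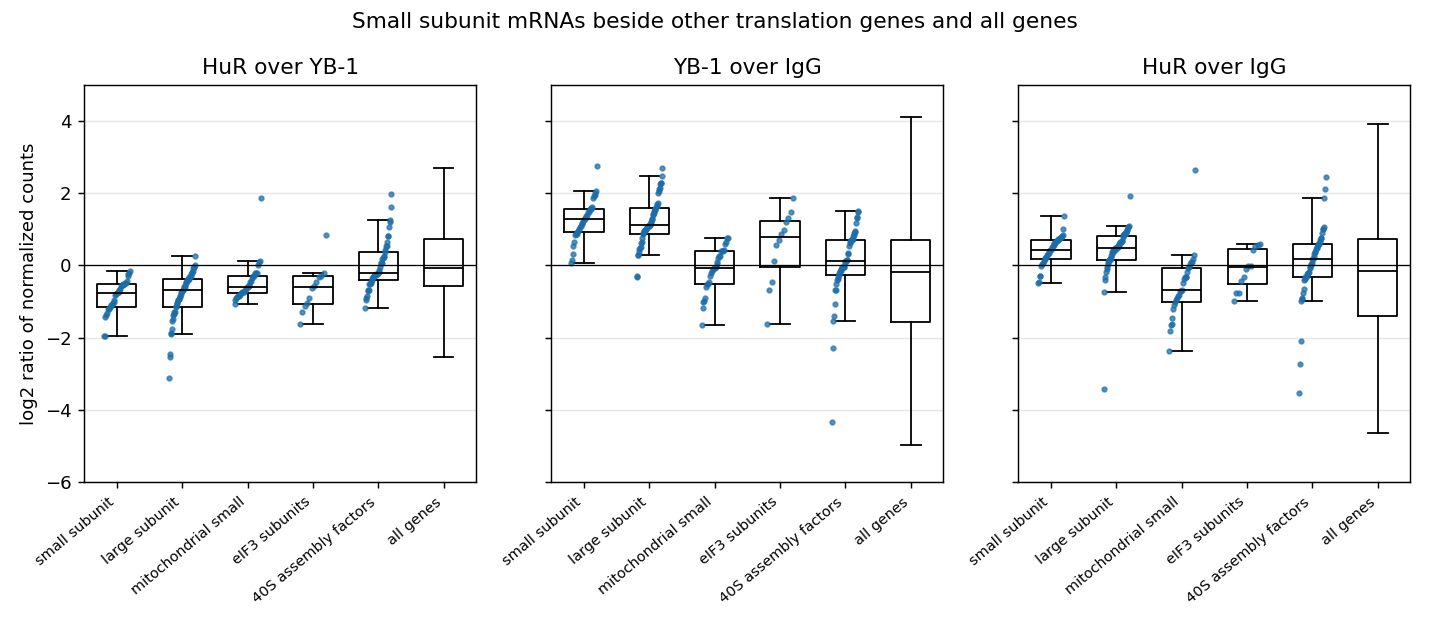
Log2 ratios in the 3 comparisons for small subunit genes, large subunit genes, mitochondrial small subunit genes, eIF3 subunits, 40S assembly factors and all genes, with boxes for quartiles, whiskers to 1.5 times the box and points for single genes (not drawn for all genes). Rpl3l lies below the axis in both ratios to IgG. The small subunit boxes sit at medians of -0.76, 1.28 and 0.42, beside -0.064, -0.17 and -0.16 for all genes.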

How the data were processed

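The authors deposited a table of normalized counts per gene (a signal: reads scaled by each library's size factor), with their mean, for 3 RIP-seq libraries from C2C12 cells. For YB-1 against IgG, the authors' deposited table adds a moderated log2 fold change, its standard error, a p-value and an adjusted p-value. Their Wald score was deposited too and is not used. The submitters' processing notes name DESeq2, HTSeq 0.6.1 and TopHat2 2.0.10 as tools and GRCm38 (mm10) as the build. The sources used here give no parameters and no strand setting.

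Whole reads were recovered to within 0.01 read for every value, and 1 read was worth 0.862 (HuR), 0.531 (YB-1) and 2.29 (IgG) normalized counts. Of 15428 rows, 25 with a date for a symbol were left out. Log2 ratios were taken without moderation for genes with a mean of 10 or more, a library at 0 being set to 3 reads. A ratio was left out where neither library had more than 3 reads. Intervals are exact 95% Clopper-Pearson. At least 2-fold stands in for a call, since 1 library per antibody gives no measure of the spread between repeats. The authors' DESeq2 values for YB-1 against IgG come from the same libraries without repeats. Alternatives cover scaling (edgeR 4.0.16 for TMM), filters, pseudocount and members. Genes are named by rule: the 5 highest and 5 lowest ratios per comparison, the 5 highest means, paralogs, ubiquitin fusions, Rpsa, Rps6 and Gnb2l1. Some genes that the rule takes in are not reported here. Any further gene was picked with its values already in view. Members and lists were chosen with earlier results of these data known. Coding sequences are those of GENCODE M21 (GRCm38), and start sequences are RefSeq's. Python 3.11.15 and SciPy 1.17.1 were used.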

Additional observations from a re-analysis of the deposited data

How the results depend on the processing

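No paired analysis was possible because each antibody has 1 library, and for the same reason no replicate could be left out. The median log2 ratio of the 33 genes in YB-1 over IgG was 1.28 on the authors' scaling, 1.51 scaled to total reads, 1.35 with TMM, 1.45 recentred on the median of all genes, 1.05 with the authors' deposited moderated fold and 0.16 recentred on large subunit genes. In HuR over IgG it was 0.42, and 0.62, 0.54 and 0.58 under the first 3 of these, 0.47 with the 32 canonical members, and -0.073 recentred on large subunit genes, where it turned. In HuR over YB-1 it was -0.76, and -0.80, -0.71 and -0.69 under the same 3, -0.70 with size factors from those 2 libraries alone and -0.065 recentred on large subunit genes. That recentring sets the median of large subunit genes to 0 by construction and moves every gene by the same amount. The median over all genes became -1.29 in YB-1 over IgG, -0.65 in HuR over IgG and 0.63 in HuR over YB-1. In YB-1 over IgG the recentring left 1 member at least 2-fold higher and 1 lower, beside 2.38% and 58.0% of all genes. There, among the genes past 2-fold on the authors' scaling, Rps3a1, Rps14 and Rps19 turned to -0.058, -0.032 and -0.10. The recentring left 0 members higher in HuR over IgG, beside 11.3% of all genes. It left 2 lower in HuR over YB-1, beside 5.22% of all genes. The 2 genes higher in HuR over IgG became 4 scaled to total reads, and 1 with a mean of 50 or more or with a pseudocount of 1, since Rps27 dropped out or below the line. The share of all genes was 23.2% scaled to total reads and 18.8% with the pseudocount. With the 7 genes of under 50% shared windows, fewer genes by construction, 5 were higher in YB-1 over IgG, 0 higher in HuR over IgG and 3 lower in HuR over YB-1. The matching shares of all genes were 17.0%, 18.9% and 12.0%. Per kilobase of coding length, the ratio of small to large subunit was 0.535 in HuR, 0.487 in YB-1 and 0.561 in IgG. The use of the median of all genes, of shared windows and of size factors from 2 libraries was chosen after seeing the data. Depth limits Rps27 alone among the members.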

Other observations

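Some rows with related names fall outside the rule. The pseudogene row Rps15a-ps6 stood at 405 normalized counts in HuR, 583 in YB-1 and 133 in IgG, and HuR over YB-1 was -0.53 on the log2 scale. Rps19-ps3 stood at 138, 16.5 and 32.1 in the same order, a ratio of 3.07 where Rps19 itself had -1.31. Rps4y2 had 14 reads in IgG and 0 in both antibody libraries.

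Genes with Rps6k symbols, named for kinases of Rps6, were counted too. Rps6kb1, an S6 kinase, reached 972 in HuR, 499 in YB-1 and 1696 in IgG, and HuR over YB-1 was 0.96 on the log2 scale. Rps6kb2 stood at 402, 636 and 585, a ratio of -0.66. Among the 9 measured genes of the kinase list, Rps19bp1 included, YB-1 over IgG put 5 (55.6%) below the 2-fold line and 2 (22.2%) above it. All genes had 32.8% and 17.0%. The 2 above were Rps6ka4 at 1.20 and Rps19bp1 at 1.49, so neither Rps6kb1 nor Rps6kb2 was among them. Rps6ka3, an RSK-family kinase, was lower by the most, with 80.2 in HuR and 81.3 in YB-1 against 943 in IgG. None of these values was tested.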
